A study of Mus musculus with 2 samples.

Results

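Ependymal cells are the ciliated glia that line the central canal of the spinal cord. In the series described here, 264 of 5145 kept barcodes of injured mouse spinal cord were of this kind, 188 of 2975 in a library labelled HDAC3i and 76 of 2170 in a library labelled Vehicle. A barcode stands for the RNA of 1 droplet, usually 1 cell. It was kept if it held at least 500 genes, at least 1000 unique molecular identifiers (UMIs, counted mRNA molecules) and at most 15% mitochondrial UMIs. It was taken as ependymal if the marker genes Ccdc153, Tmem212, Rsph1 and Foxj1 together gave at least 5 UMIs while the microglial complement genes C1qa and C1qb together gave at most 10. Every gene was then read in these barcodes, which were chosen on measured values of those markers, so their marker levels describe the choice and test nothing.

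The study asked how spinal cord cells of mice respond to injury when histone deacetylase 3 (HDAC3) is inhibited. HDAC3 is the catalytic subunit of the NCoR and SMRT corepressor complexes and removes acetyl groups from histones. Single cells were taken 5 days after the injury and captured with the 10x Genomics 3′ kit, version 3, in 1 library from HDAC3i-treated cord and 1 from Vehicle-treated cord. Both groups were injured, and neither an uninjured group nor the names of the inhibitor and the vehicle are in the labels. The labels also give no strain, age, sex, injury model, dose, cord level or number of animals, and both titles carry the same date. With 1 library in each group there was no replicate check and no test, so the text compares libraries, not treatments. All intervals are exact 95% intervals and cover counting error only. Paired values are in the order HDAC3i, Vehicle, levels are UMIs per 1000000 (CPM) of the summed ependymal barcodes, and ratios are HDAC3i over Vehicle.

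Ependymal cells carry tufts of motile cilia that move cerebrospinal fluid. Each cilium is built around an axoneme, in which outer and inner dynein arms drive sliding of microtubule doublets, radial spokes and the central pair set the beat, and intraflagellar transport carries parts to the tip. The transcription factors Foxj1 and the RFX family switch on most of these genes, and RFX factors bind an inverted repeat known as the X-box. In the rodent spinal cord, cells around the central canal also express neural stem cell genes such as Sox2, Sox9 and Vim, divide after injury and can give rise to astrocytes of the scar, which is why cilia, stem-like and injury genes were read side by side here.

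The X-box is shown first because it was more frequent in promoters of cilia genes than in promoters at large, though most cilia genes lacked it, and the choice of barcodes did not use it. RefSeq promoters on GRCm38.p6, 250 bases before to 50 bases after each annotated start, were searched for GTTNCC followed after 0 to 3 bases by its reverse complement GGNAAC, a palindrome that reads alike on both strands. It stood in 264 of 32851 promoters (0.804%) and in 9 of 133 promoters of motile cilia genes (6.77%). Counted by gene, these were 253 of 27025 genes (0.936%) and 9 of the 119 cilia genes that matched the table, out of 145 listed (7.56%). None of the matched promoters of the neural stem-like (26), reactive glia (37), ribosomal protein (19) and nuclear oxidative phosphorylation (22) genes held it. These lists are too short for that to differ from the 0.936% of all genes. In 7 cilia genes with an X-box before the start, it ended a median of 19 bases upstream, with a range of 3 to 86 bases. Hits on 1 chromosome were left out of these 7. The forkhead core TGTTTA, searched on both strands as the shared core of forkhead sites, was in 13.4% of all promoters and 19.5% of the cilia promoters. The table did not hold every listed gene, and a match is a description of letters, not of binding. The following 60-base stretches come from 5 of these genes, each printed 5′ to 3′ on the minus strand from RefSeq, with the X-box in capitals. They are shown so that the repeat can be compared between genes whose levels are given in the text: 1110017D15Rik and Fam183b, which code for small axonemal proteins, Ccdc151, a docking protein of outer dynein arms, Iqca, of the dynein regulatory complex, and Pifo, which acts at the base of the cilium.
1110017D15Rik: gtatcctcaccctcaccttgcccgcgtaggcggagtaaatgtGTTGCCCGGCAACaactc
Fam183b: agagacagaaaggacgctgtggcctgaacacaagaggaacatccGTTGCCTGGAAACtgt
Pifo: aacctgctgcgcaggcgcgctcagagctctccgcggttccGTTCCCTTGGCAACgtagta
Ccdc151: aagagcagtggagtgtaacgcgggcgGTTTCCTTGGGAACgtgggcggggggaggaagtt
Iqca: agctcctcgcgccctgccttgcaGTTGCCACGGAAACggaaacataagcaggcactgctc
The stretches lie at chr4:41507765-41507824 for 1110017D15Rik, chr11:58801961-58802020 for Fam183b, chr3:106001498-106001557 for Pifo, chr9:22002635-22002694 for Ccdc151 and chr1:90153500-90153559 for Iqca, all before the annotated start and outside annotated exons. The repeat was 13 bases long in 1110017D15Rik and Fam183b, where 1 base separates the arms, and 14 bases long in Pifo, Ccdc151 and Iqca, where 2 bases do. It ended 5, 3, 6, 20 and 86 bases before the start in the order of the coordinates.

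Levels of the markers that chose the barcodes are given first, as a description of that choice, and genes that did not choose them follow. Ccdc153, which codes for a coiled-coil protein of motile cilia, was at 1657 and 1367 CPM in the ependymal barcodes and 1.14 and 0.316 CPM in the other kept barcodes. Tmem212, a membrane protein of ciliated cells, was at 1152 and 1002 CPM against 0.947 and 0.0702 CPM. Rsph1, a radial spoke head protein, was at 1022 and 800.2 CPM against 1.65 and 1.05 CPM, and Foxj1, the master regulator of motile ciliogenesis, at 466 and 458 CPM against 2.49 and 2.21 CPM. The ratio between the libraries was 1.21 (1.12 to 1.31) for Ccdc153, 1.15 (1.05 to 1.26) for Tmem212, 1.28 (1.15 to 1.42) for Rsph1 and 1.02 (0.882 to 1.17) for Foxj1. The 4 genes lie on mm10 (GENCODE M21) at chr9:44240676-44247306, plus strand, chr3:27866066-27896368, minus strand, chr17:31255019-31277383, minus strand and chr11:116330704-116335399, minus strand, in that order. A barcode held a median of 26 and 27.5 UMIs of the 4 markers, with ranges of 5 to 141 and 6 to 96. Few lay near the limit: 6 and 2 barcodes held 5 to 7 of these UMIs, and 20 and 14 barcodes with 2 to 4 fell just outside. The limit on C1qa and C1qb left out 3 and 0 further barcodes.

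Depth differed somewhat between the libraries. Ependymal barcodes held a median of 5737 and 7029 UMIs and 2422 and 2780 genes, against 9775 and 10252.5 UMIs in all kept barcodes. Their summed depth was 1290359 and 634840 UMIs, so the Vehicle values are the less precise ones. Mitochondrial UMIs made up a median of 8.91% and 9.93% of an ependymal barcode, against 3.39% and 3.63% of all kept barcodes. No barcode sequence of an ependymal barcode occurred in both libraries, and 4 of the kept ones did.

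Some of these barcodes also held many transcripts of another cell type, and several of those were among the deepest. A barcode was taken as mixed if it held at least 20 UMIs of 1 marker list of another type, a limit chosen after seeing the data. The astrocyte list was not used for this mark, so barcodes with many astrocyte transcripts could count as unmixed. Of the 10 astrocyte markers a barcode held up to 51 and 15 UMIs. By this mark 9 and 6 barcodes were mixed. They held 12.9% and 20.03% of the ependymal UMIs. Their depth ran from 4044 to 53368 and from 4871 to 73855 UMIs, so not all were deep. In the shallowest, motile cilia transcripts made up 2.10% and 2.98% of the UMIs. In the HDAC3i library, 6 carried oligodendrocyte markers and 1 each those of neurons, endothelium and microglia. In the Vehicle library, 2 each carried oligodendrocyte, endothelial and mural markers. The deepest Vehicle barcode alone held 73855 UMIs, 11.6% of that library's ependymal total, with 209 UMIs of the endothelial junction gene Cldn5 and 271 of the adhesion gene Vcam1, and only 0.263% of its UMIs were motile cilia transcripts. The deepest HDAC3i barcode held 53368 UMIs (4.14%), with 1121 of Vim, 100 of Gfap and 35 of Top2a. The doublet caller Scrublet marked 21 and 6 kept barcodes (0.706% and 0.276%) and 3 and 1 of the ependymal ones, which were all mixed. Since it marked so few, no barcode was removed on its call, and whether the mixed barcodes were doublets was not tested. Values are therefore given for all 264 barcodes or for the 179 and 70 unmixed ones, as each sentence says, and for both where the results turn on them.

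**Figure D1:**
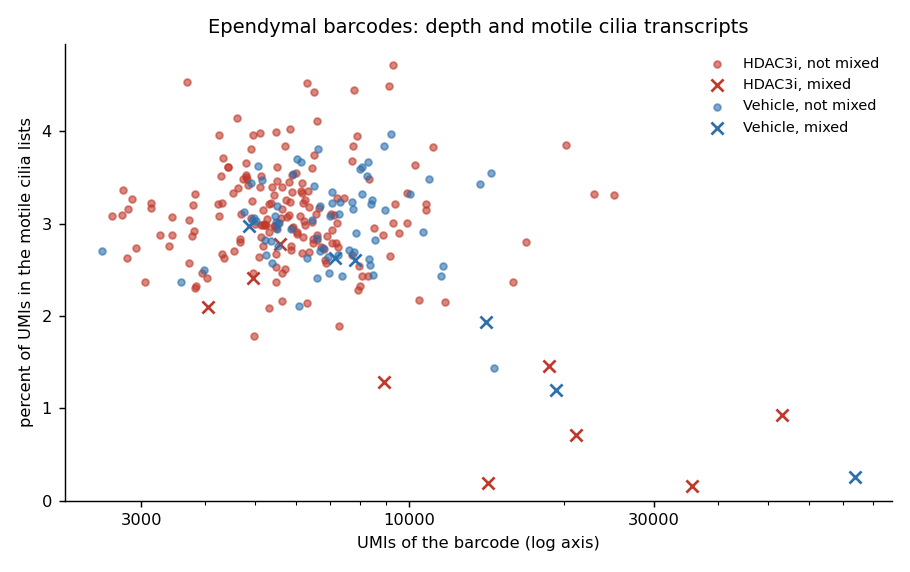
Each point is 1 ependymal barcode, with its total UMIs on a log x axis and the percent of its UMIs in the motile cilia lists on the y axis, by library (colour) and by whether it was mixed (crosses). Most unmixed barcodes lie near 3% at every depth, while the 2 deepest barcodes of the plot, at 73855 and 53368 UMIs, are mixed and lie at 0.263% and 0.931%.

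Markers of the other cell types were low once the mixed barcodes were set aside, with some exceptions. The mixed mark was made from these same lists, the astrocyte one apart. The lower unmixed sums therefore follow from that mark and test nothing. All 8 endothelial markers summed to 75.2 and 1254 CPM in all barcodes and to 26.7 and 49.2 CPM in the unmixed ones, against 2704 and 2709 CPM in the other kept barcodes. The 8 oligodendrocyte markers summed to 3453 and 386 CPM, and to 313 and 295 CPM unmixed. The 11 microglia and macrophage markers summed to 784 and 309 CPM, and to 344 and 335 CPM unmixed, where the rest of the libraries held 27609.7 and 28114 CPM. Of the 10 astrocyte markers 9 and 7 were detected and their sum was 320.1 and 222 CPM. The choroid plexus marker Ttr was at 0 in both libraries, whereas Folr1, a folate receptor on the same list, was at 149 and 154 CPM. The neuronal tubulin regulator Stmn2 was at 183 and 149.6 CPM and made up most of the neuron list, of which 4 and 5 of 8 genes were at 0. The lymphocyte list held 0 and 2 UMIs.

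The genes that set ependymal barcodes apart were in part genes of the motile cilium and in part others. The 20 genes with the highest ratio of ependymal CPM to that of all other kept barcodes are given here as a description, since the markers that chose the barcodes travel with them. Hydin, a central pair protein whose loss causes hydrocephalus in mice, was at 240.2 and 198 CPM, with 0.0541 and 0 CPM elsewhere. Spag17, also of the central pair, was at 138 and 151 CPM against 0.0541 and 0.0702 CPM. Cfap206, a radial spoke protein, was at 127 and 146 CPM against 0.0812 and 0.0351 CPM. Lrrc6 and Daw1, which help dynein arms to be preassembled and delivered, were at 94.5 and 70.9 CPM and at 61.2 and 64.6 CPM, and Ccdc151 at 59.7 and 69.3 CPM. Iqca was at 219 and 214 CPM and 1110017D15Rik at 809 and 736 CPM. The list also held genes that are not parts of the cilium. Slc14a2, a urea transporter, was at 93.8 and 72.5 CPM, Slc26a3, an anion exchanger, at 132 and 154 CPM, Acot5, a peroxisomal thioesterase, at 173 and 151 CPM, and Dsc3, a desmosomal cadherin, at 77.5 and 67.7 CPM. Agr3, a protein disulphide isomerase of ciliated epithelia, was at 51.1 and 53.6 CPM, Fam216b at 405 and 361 CPM and the zinc finger gene Zbbx at 79.8 and 91.4 CPM. Ccdc153 was the marker gene among the 20, and the remaining 4 were 1700016K19Rik, 1700024G13Rik, Gm10714 and Gm28729. Of the 20, 15 matched the promoter table and 4 of those held an X-box (26.7%).

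Ependymal barcodes made up a larger share of the HDAC3i library. They were 6.32% (5.47 to 7.25, exact Clopper-Pearson) of its kept barcodes and 3.50% (2.77 to 4.36) of those in the Vehicle library, a ratio of 1.80 (1.38 to 2.39). The ratio was 1.87 (1.41 to 2.50) without the mixed barcodes, 1.79 (1.36 to 2.37) out of the barcodes that were not rich in C1qa and C1qb, and 1.77 (1.37 to 2.31) when the filter on barcodes was not applied. Other kinds of barcode, taken by their own markers, were nearer to equal shares. Astrocyte barcodes were 36 and 23 (1.21% and 1.06%), a ratio of 1.14 (0.658 to 2.02), and endothelial barcodes 512 and 354, a ratio of 1.05 (0.919 to 1.21). Barcodes rich in C1qa and C1qb were 918 and 682, a ratio of 0.982 (0.888 to 1.09), and oligodendrocyte barcodes 387 and 204, a ratio of 1.38 (1.16 to 1.65). Differences between the cords, their dissociation and the treatment cannot be told apart with 1 library a group.

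**Figure D2:**
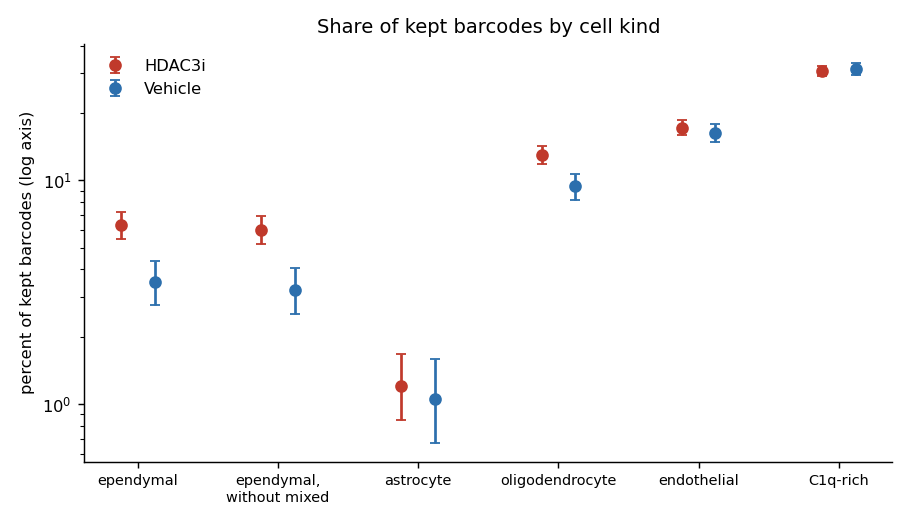
Points give the percent of kept barcodes of each kind in the HDAC3i (red) and Vehicle (blue) libraries on a log axis, and bars the exact 95% intervals, which cover counting error only. The ependymal shares, 6.32% and 3.50%, have intervals that do not overlap, while those of astrocyte, endothelial and C1q-rich barcodes overlap and those of oligodendrocyte barcodes, 13.0% and 9.40%, do not.

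Within the ependymal barcodes most genes stood at like levels in both libraries. Of 3308 genes that reached 100 UMIs over both libraries and 50 CPM in 1 of them, 150 (4.53%) were at least 1.5-fold higher and 116 (3.51%) at least 1.5-fold lower in the HDAC3i library, or 8.04% in all. The median log2 ratio was 0.05. Among the unmixed barcodes 2796 genes were measured, of which 60 (2.15%) were higher and 44 (1.57%) lower by that fold, 3.72% in all, and 71.3% lay within 1.2-fold. Without the mixed barcodes, 59 of the 150 higher genes and 62 of the 116 lower ones fell below the limits for a measured gene. Of the 91 and 54 still measured, 47 and 19 were also past 1.5-fold, or 31.3% of the 150 and 16.4% of the 116. Of the 104 genes past 1.5-fold in the unmixed barcodes, 90 had an interval that left out a ratio of 1.

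**Figure D3:**
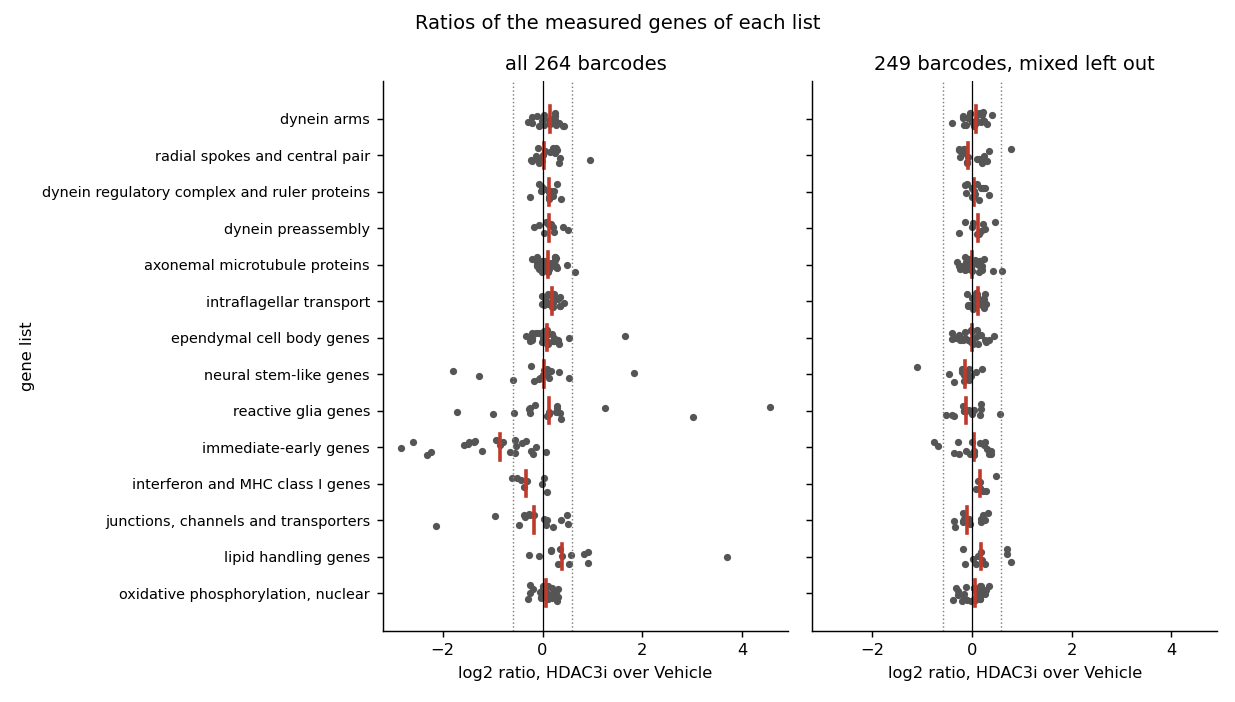
Each dot is 1 measured gene of a list, with its log2 ratio HDAC3i over Vehicle on the x axis, for all 264 barcodes (left) and for the 249 unmixed ones (right). Red bars are list medians and dotted lines mark 1.5-fold. The immediate-early list moves from a median of -0.86 to 0.04 when the mixed barcodes are left out, while the cilia lists keep close to 0 in both panels.

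The motile cilia genes were at nearly the same level in both libraries. Of 145 genes on 6 lists, 116 were measured, of which 2 were past 1.5-fold, both higher in the HDAC3i library (beside 4.53% of all genes), and none was lower (beside 3.51%). Their median log2 ratio was 0.14 in all barcodes and 0.07 in the unmixed ones, beside 0.05 and 0.03 over all measured genes. In the unmixed barcodes 108 of the 116 intervals held a ratio of 1. All 145 genes summed to 28278 and 26111 CPM, and to 31149 and 30217 CPM unmixed, against 1416 and 1467 CPM in the other kept barcodes.

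Dynein arms are the motors of the cilium. All 21 measured of 24 arm genes lay within 1.5-fold. The axonemal heavy chain gene Dnah12 was at 353 and 351 CPM, a ratio of 1.01 (0.855 to 1.19), and Dnah6 at 311 and 280.4 CPM. Dynlrb2, a light chain of the dynein that serves transport in cilia, was at 728 and 548 CPM, a ratio of 1.33, and 1.24 (1.09 to 1.41) unmixed. Ccdc114, which docks outer arms on the doublets, was at 282 and 209.5 CPM, with a ratio of 1.35, and 1.33 (1.08 to 1.65) unmixed. Dynlrb2 and Ccdc114 were the arm genes with an interval off 1 in the unmixed barcodes, where 19 of 21 intervals held 1. Ccdc151, one of the X-box genes, was at 59.7 and 69.3 CPM, a ratio of 0.861, and 0.892 (0.599 to 1.35) unmixed.

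Radial spokes link the outer doublets to the central pair. Of 25 spoke and central pair genes 18 were measured and 1 was past 1.5-fold. That gene, Dydc2, a DPY30-domain protein of the radial spoke, was at 64.3 and 33.1 CPM, a ratio of 1.94, and 1.72 (1.05 to 2.93) unmixed. It rested on 83 and 21 UMIs. Cfap54, a central pair protein, was at 476 and 402 CPM, Spef2 of the same structure at 375 and 362 CPM, the spoke head gene Rsph4a at 276 and 287 CPM and Hydin at a ratio of 1.21, and 1.18 (0.952 to 1.47) unmixed. The dynein regulatory complex, with the ruler proteins that set the repeat of the axoneme, had 15 of 17 genes measured and none past 1.5-fold. Its ruler gene Ccdc39 was at 385 and 340.2 CPM and Ccdc40 at 142 and 143 CPM, with ratios of 1.13 and 0.989. Iqcg was at 397 and 309 CPM, a ratio of 1.29, and 1.27 (1.07 to 1.52) unmixed, and was the member of this list whose unmixed interval left out 1, and the X-box gene Iqca was at a ratio of 1.02, and 1.04 (0.835 to 1.29) unmixed.

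Dynein arms are assembled in the cytoplasm before transport. Of 15 preassembly genes 10 were measured, none past 1.5-fold and all with unmixed intervals that held 1. The chaperone cofactor genes 1110004E09Rik and Zmynd10 were at 323 and 280.4 CPM and at 119 and 83.5 CPM, with ratios of 1.15 and 1.42 (1.03 to 1.98). Intraflagellar transport, which builds both motile and primary cilia, had 22 of 29 genes measured, again none past 1.5-fold and all 22 unmixed intervals holding 1. Ift20 was at 336 and 319.8 CPM, Ift88 at 139 and 128 CPM and the retrograde motor gene Dync2h1 at 154 and 134 CPM. These genes were also present outside ependymal barcodes, with Ift20 at 88.6 and 86.3 CPM in the rest.

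Proteins of the axonemal microtubules and their lumen had 30 of 35 genes measured and 1 past 1.5-fold. That gene, Ccdc170, was at 131 and 83.5 CPM, a ratio of 1.57, and 1.52 (1.10 to 2.14) unmixed. Tuba1a, an alpha tubulin that many cells share, stood lower, at 2124 and 2295 CPM with a ratio of 0.926, and 0.844 (0.789 to 0.903) unmixed, and was at 566 and 686 CPM in the other barcodes. Tubb4b, a beta tubulin of the axoneme, was at 961 and 953 CPM. Fam183b was at 1076 and 881 CPM, a ratio of 1.22, and 1.15 (1.04 to 1.28) unmixed, 1110017D15Rik at a ratio of 1.10, and 1.05 (0.935 to 1.17) unmixed, Enkur, a calmodulin-binding protein, at 511 and 489.9 CPM, and Pifo at 320.1 and 266 CPM. The 5 X-box genes whose sequences are printed lay between ratios of 0.892 and 1.15 in the unmixed barcodes.

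Transcripts of the program that builds cilia anew were scarce. Multiciliation starts with Gmnc and Mcidas, which switch on Myb, Ccno and the deuterosome genes that make basal bodies. Mcidas had no UMI in either library, which allows up to 2.32 and 4.73 CPM. Deup1, the core of the deuterosome, had 4 and 2 UMIs and Ccno 15 and 4 UMIs. Myb was at 61.2 and 61.4 CPM. The RFX factors that keep cilia genes active were present, with Rfx3 at 125 and 115 CPM and Rfx4 at 98.4 and 99.2 CPM, as were the nuclear factor I genes Nfix (550.2 and 506 CPM), Nfia (320.1 and 329 CPM) and Nfib (281 and 337 CPM). Cetn2, a centrin of basal bodies, was at 447 and 444 CPM. Of the 28 regulators 8 were measured, none past 1.5-fold, and all 8 unmixed intervals held 1.

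Genes of the ependymal cell body, known from the lining but not parts of the cilium, were alike as well. Of 28 genes 24 were measured and 1 was past 1.5-fold, the small heat shock gene Cryab, at 189 and 59.9 CPM. Cryab is also high in oligodendrocytes, and it was at 53.4 and 68.9 CPM in the unmixed barcodes, where it was no longer measured and none of the 23 measured genes was past 1.5-fold. Dbi, which codes for the acyl-CoA binding protein, was at 16045 and 13715 CPM, a ratio of 1.17, and 1.08 (1.06 to 1.11) unmixed. Mt3, a brain metallothionein, was at 8292 and 8141 CPM, the imprinted gene Nnat at 6016 and 5132 CPM and Clu, a secreted chaperone, at 1995 and 2097 CPM. Rarres2, the precursor of the chemoattractant chemerin, was higher in the HDAC3i library, at 2392 and 1904 CPM with a ratio of 1.26, and 1.26 (1.18 to 1.35) unmixed, and stood at 40.4 and 39.8 CPM in the other barcodes. Mia and Tm4sf1 were lower, with Mia, a small secreted protein, at 766 and 882 CPM and a ratio of 0.868, and 0.844 (0.757 to 0.943) unmixed, and Tm4sf1, a tetraspanin-like membrane protein, at 966 and 1153 CPM and a ratio of 0.837, and 0.763 (0.687 to 0.848) unmixed.

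Genes of neural stem cells fell into those that nearly all ependymal barcodes carried and those that few did. To compare detection at equal depth, each barcode of at least 3000 UMIs was thinned to 3000 UMIs, which left out 7 and 1 shallower ependymal barcodes. Sox2, a transcription factor of neural stem cells, was then found in 89.0% and 85.3% of ependymal barcodes and in 0.110% and 0.149% of C1q-rich ones, which should lack it. Before thinning it was in 182 of 188 and 75 of 76 ependymal barcodes, at 795 and 749.8 CPM, a ratio of 1.06, and 0.991 (0.884 to 1.11) unmixed. Sox9, a factor of glia and their progenitors, was at 369.7 and 389 CPM and in 66.9% and 76.0% of thinned barcodes. Vim, an intermediate filament of ependymal cells and reactive glia, was in 98.3% of HDAC3i and all of the Vehicle barcodes, and at 2910.0 and 3032 CPM. Its ratio was 0.960, and 0.776 (0.727 to 0.829) unmixed, but 1 unmixed Vehicle barcode, with 14640 UMIs and 7 UMIs of the 4 markers, held 273 of the 1425 unmixed Vehicle UMIs, and without it the ratio was 0.933 (0.869 to 1.001). C1q-rich barcodes also held Vim in 60.2% and 47.2%. Id4, an inhibitor of differentiation, was at 382 and 381 CPM, the neurotrophin receptor gene Ntrk2 at 426 and 379.6 CPM, the surface sialoglycoprotein gene Cd24a at 439 and 413 CPM and the RNA-binding protein gene Msi2 at 369.7 and 417 CPM. Their ratios were 1.002, 1.12, 1.06 and 0.886. Sox4, a factor of progenitors, was lower in the HDAC3i library, at 168 and 198 CPM, a ratio of 0.847, and 0.731 (0.576 to 0.930) unmixed, which was 0.794 (0.622 to 1.02) without the barcode that held 11 of the 115 unmixed Vehicle UMIs.

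Genes tied to activated stem cells and their progeny were found in few ependymal barcodes. Nes, an intermediate filament of dividing progenitors, was in 3.31% and 6.67% of thinned ependymal barcodes and in 3.09% and 3.13% of C1q-rich ones. Prom1, a membrane protein of stem cells, was in 4.42% and 6.67% against 0.221% and 0%, and Gfap, the filament of astrocytes, in 11.05% and 10.7% against 2.76% and 3.58% in C1q-rich barcodes. In astrocyte barcodes Gfap was in 58.3% and 31.6% and at 2640.0 and 1696 CPM, compared with 160.4 and 126 CPM in ependymal ones. The oligodendrocyte lineage gene Olig2 was in 4 of 188 and 0 of 76 barcodes before thinning. Dcx, a marker of young neurons, had no UMI, which allows up to 1.60% and 3.95% of barcodes to hold 1. Median UMIs before thinning were 5737 and 7029 in ependymal barcodes, 15558.5 and 16670.0 in C1q-rich ones and 6421 and 12172 in astrocyte ones.

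As a list, 17 of 34 stem-like genes were measured in all barcodes, of which 1 was past 1.5-fold higher (Glul, glutamine synthetase) and 3 lower (Hes1, Id2 and Id3), beside 4.53% and 3.51% of all genes. Id3 held 82 and 97 UMIs in all barcodes but 24 and 2 UMIs in the unmixed ones, a ratio of 5.42 (1.35 to 47.3) in the other direction, so its lower level lay in the mixed barcodes. In the unmixed barcodes 14 were measured, of which Hes1 was past 1.5-fold lower (beside 1.57% of all genes), 12 had a ratio under 1 (beside 46.2%) and 11 an interval that held 1. The median log2 ratio was 0.04 in all barcodes and -0.13 in the unmixed ones, beside 0.05 and 0.03 over all genes. The 34 genes summed to 6699.6 and 7719 CPM in the unmixed barcodes. Vim made up the largest part of that sum and of its difference, so the single Vehicle barcode rich in Vim bears on both.

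**Figure D4:**
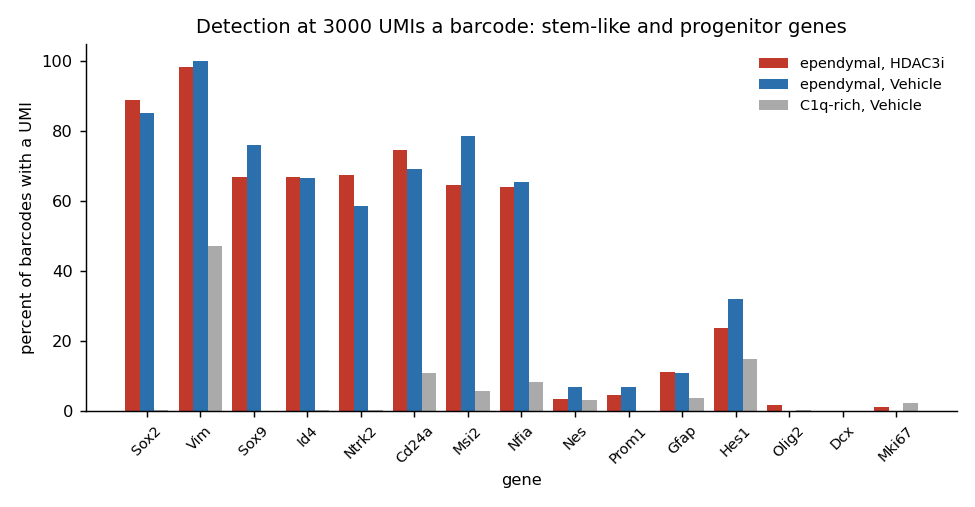
Bars give the percent of barcodes with at least 1 UMI of each gene after thinning to 3000 UMIs, for ependymal barcodes of the HDAC3i (red) and Vehicle (blue) libraries and for C1q-rich barcodes of the Vehicle library (grey). Sox2 stands at 89.0% and 85.3% with 0.149% in C1q-rich barcodes, whereas Nes, Prom1, Olig2, Dcx and Mki67 are each under 10% in both ependymal sets.

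The cycling genes Mki67 and Top2a were nearly absent from the unmixed barcodes. Mki67, a marker of cycling cells, had 11 and 0 UMIs and Top2a, the mitotic topoisomerase, 40 and 0 UMIs, of which 10 and 35 lay in the deepest, mixed HDAC3i barcode. That barcode held 203 UMIs of 9 mitotic genes and 29 of Sox2, with 12 UMIs of the 4 ependymal markers. It was marked mixed by the neuron list, whose main gene, Stmn2, was also in 74 of 179 unmixed HDAC3i barcodes. Whether it was a dividing ependymal cell was not tested, so the near absence holds only with this barcode set aside. At least 3 UMIs of the 9 genes were found in 8 of 188 and 3 of 76 barcodes, of which 2 and 2 were mixed. Unmixed barcodes held 1 and 0 UMIs of Mki67 and 3 and 0 UMIs of Top2a. A count of 0 in the Vehicle library allows up to 4.73 CPM of a gene, so lower levels were not detectable there. Ccnd2, a cyclin that also acts outside division, was at 275 and 258 CPM, a ratio of 1.06, and 1.04 (0.853 to 1.27) unmixed. Of 26 S phase genes 2 were measured, and both lay within 1.5-fold. The 26 genes summed to 640 and 567 CPM in the unmixed barcodes, above the 432 and 403 CPM of the other kept barcodes. Of 22 G2/M genes Hmgb2, a chromatin protein, was the measured one, at 212 and 109 CPM, and its ratio was 1.95, and 1.18 (0.869 to 1.63) unmixed. The 22 genes summed to 262 and 238 CPM unmixed, below the 448 and 526 CPM of the other kept barcodes.

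Hes1, a repressor downstream of Notch, stood further below 1 in the unmixed barcodes than any other measured gene of the stem-like, Notch, cilia and reactive lists. It was at 104 and 361 CPM, a ratio of 0.288 (0.231 to 0.358), and at 117 and 248 CPM unmixed, a ratio of 0.470 (0.365 to 0.605). After thinning it was in 19.2% and 31.9% of unmixed barcodes, beside 16.1% and 14.8% of C1q-rich and 58.8% and 59.5% of endothelial ones. The deepest Vehicle barcode, an endothelial mixture, held 90 of the 229 Vehicle UMIs. Among the unmixed Vehicle barcodes the highest held 24 and 21 of 126 UMIs, and in the HDAC3i library the highest held 10 of 131. The highest Vehicle barcode was the one that also held the most Vim, with 14640 UMIs and 7 UMIs of the 4 markers. Without it the unmixed ratio of Hes1 was 0.563 (0.432 to 0.737). The ratio without both of the highest Vehicle barcodes was not taken. Hes1 was also lower in the HDAC3i astrocyte barcodes, with a ratio of 0.339 (0.215 to 0.521) on 30 and 81 UMIs, and its ratio was 0.819, 1.02 and 0.777 in endothelial, C1q-rich and oligodendrocyte barcodes. The gene lies on mm10 at chr16:30064384-30067796, plus strand. Other Notch genes were few: the receptor gene Notch1 was at 58.1 and 86.6 CPM, a ratio of 0.671, and 0.727 (0.485 to 1.10) unmixed, and Rbpj, the DNA-binding partner of Notch, at 112 and 96.1 CPM, a ratio of 1.16, and 1.16 (0.838 to 1.62) unmixed. Of 24 pathway genes 4 were measured and 2 were past 1.5-fold lower (beside 3.51% of all genes), Hes1 and the protease gene Adam10, at 53.5 and 89.8 CPM with an unmixed ratio of 0.720 (0.470 to 1.12).

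Genes of the cord's length and of the lateral canal wall were detected, and those of its poles were rare. The cord identity genes Hoxa7, Hoxc8 and Hoxa9 were at 219 and 209.5 CPM, 92.2 and 109 CPM and 109 and 106 CPM. Nkx6-1, which marks ventral and lateral progenitors, was at 172 and 131 CPM and in 117 of 188 and 45 of 76 barcodes, against 2.003 and 0.842 CPM in the other kept barcodes. Pax6 of the lateral domains was at 112 and 109 CPM and in 85 and 34 barcodes, against 0.677 and 0.281 CPM elsewhere, and Irx5 at 119 and 106 CPM. The floor plate genes Foxa2 and Shh were in no barcode, which allows up to 1.60% and 3.95%, and the dorsal midline gene Zic1 was in 2 and 0. Of 29 genes 10 were measured, none past 1.5-fold, and all 10 unmixed intervals held 1. The Hedgehog receptor component genes Smo and Ptch1 were at 60.4 and 61.4 CPM and at 46.5 and 37.8 CPM, and 4 of 26 Hedgehog and BMP genes were measured, none past 1.5-fold.

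Reactive glia genes were present in both libraries, and the largest ratios of this list lay in mixed barcodes. The metallothionein genes Mt1 and Mt2, which glia raise after injury, were at 7420.4 and 6069 CPM and at 2127 and 1945 CPM, with ratios of 1.22, and 1.14 (1.10 to 1.19) unmixed, and of 1.09, and 1.04 (0.965 to 1.11) unmixed. Sparc, a matrix protein, was at 517 and 764 CPM, with an unmixed ratio of 0.920 (0.795 to 1.07), and Anxa2, an annexin, at 316 and 375 CPM. Socs3, the feedback inhibitor of STAT3, was at 177 and 213 CPM, a ratio of 0.831, and 0.785 (0.620 to 0.997) unmixed. A single barcode held 32 of the 114 unmixed Vehicle UMIs, and without it the ratio was 1.07 (0.827 to 1.41), on the other side of 1. Hspb1, a small heat shock protein of reactive astrocytes, was lower in the HDAC3i library, at 263 and 523 CPM with a ratio of 0.504, and 0.697 (0.560 to 0.870) unmixed. The Vehicle barcode with the most Vim also held 33 of the 138 unmixed Vehicle UMIs, and without it the ratio was 0.890 (0.701 to 1.14). Of 44 genes 18 were measured, 3 past 1.5-fold higher (Spp1, Lgals3 and Lgals1, beside 4.53% of all genes) and 2 lower (Hspb1 and Srgn, beside 3.51%). In the unmixed barcodes none of 15 was past it. Spp1, the secreted protein osteopontin, was at 1997 and 85.1 CPM in all barcodes and 122 and 82.7 CPM unmixed, since 1 HDAC3i barcode with microglial markers held 2005 of its UMIs and the deepest held 421. Spp1 was at 16668 and 12194 CPM in the other kept barcodes. Lgals3, a galectin of phagocytes, was likewise at 349.5 and 146 CPM and at 149 and 134 CPM unmixed. The list's median log2 ratio was 0.13 in all barcodes and -0.12 in the unmixed ones.

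Immediate-early genes, which cells switch on within minutes of a stimulus, were lower in the HDAC3i library with the mixed barcodes and near equal without them. In all barcodes 14 of 23 measured genes were past 1.5-fold lower in the HDAC3i library (beside 3.51% of all genes) and the median log2 ratio was -0.86. In the unmixed ones 2 of 18 were (beside 1.57% of all genes), and the median was 0.04. Junb was at 362 and 934 CPM and at 335 and 284 CPM unmixed, and the NF-kappa-B inhibitor gene Nfkbia at 108 and 655 CPM and at 91.6 and 88.6 CPM. Fos was at 1476 and 1736 CPM, a ratio of 0.850, and 1.03 (0.943 to 1.13) unmixed, and in 102 of 188 and 48 of 76 barcodes. The members still past 1.5-fold were Klf2, a factor of endothelium and quiescent cells, and Ier5. Klf2 was at 105 and 525 CPM, a ratio of 0.201, and 0.588 (0.429 to 0.809) unmixed, or 0.769 (0.546 to 1.09) without the barcode that held 18 of the 73 unmixed Vehicle UMIs, and at 649.7 and 647 CPM in the other barcodes. Ier5 was at 75.9 and 110.3 CPM, a ratio of 0.689, and 0.625 (0.443 to 0.886) unmixed. Egr1 stood higher in the unmixed HDAC3i barcodes, at 250.01 and 191 CPM, a ratio of 1.31 (1.04 to 1.67), or 1.19 (0.938 to 1.52) without the barcode that held 29 of the 281 unmixed HDAC3i UMIs.

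Genes of the interferon response and of MHC class I, which present antigen, were also read with and without the mixed barcodes. All 7 measured genes had an unmixed ratio above 1 (beside 53.8% of all genes), with a median log2 of 0.17, while in all barcodes the median was -0.33 and 1 of 8 was past 1.5-fold lower, beside 3.51% of all genes (Ifitm2, with 88 and 66 UMIs, and 77 and 16 UMIs unmixed). H2-D1, a class I heavy chain, was at 471 and 337 CPM unmixed, a ratio of 1.40 (1.17 to 1.67), and at 2556 and 2719 CPM in the other kept barcodes. H2-K1 was at 511 and 485 CPM, a ratio of 1.05 (0.906 to 1.23). The sequence likeness of class I genes leaves their counts uncertain. Ifitm3, an interferon-induced membrane protein, was at 3933 and 3979 CPM, a ratio of 0.988, and 1.12 (1.06 to 1.18) unmixed. Of 32 chemokine and cytokine genes 5 were measured, 2 past 1.5-fold higher and 2 lower (beside 4.53% and 3.51%). The chemokine gene Ccl2 had 200 and 0 UMIs, and 1 mixed barcode held all 200. Il33 (139 and 2 UMIs), Icam1 (7 and 157 UMIs) and Vcam1 (5 and 275 UMIs) had 9 and 2 UMIs, 5 and 2 UMIs and 4 and 3 UMIs in the unmixed barcodes. Mif, a cytokine that many cells make, was the member measured there, at 169 and 165 CPM.

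Growth factor, matrix and junction genes were past 1.5-fold in all barcodes only on the low side, and none was in the unmixed ones. Cyr61, a matricellular target of YAP, was at 281 and 326 CPM, the midkine gene Mdk at 193 and 158 CPM, and the EGF-family gene Hbegf at 99.97 and 132 CPM. In all barcodes 1 of 7 growth factor genes, 4 of 12 matrix genes and 2 of 15 junction genes were past 1.5-fold lower, beside 3.51% of all genes. In the unmixed barcodes 5, 8 and 14 of them were measured and none was past it. Bdnf, a neurotrophin, had 21 and 18 UMIs there, a ratio of 0.527 (0.267 to 1.05), and was at 0.541 and 0.702 CPM elsewhere. Among matrix genes, the laminin chain gene Lamb2 was at 129 and 97.7 CPM, a ratio of 1.32, and 1.45 (1.04 to 2.04) unmixed, Timp2 at 372 and 349.7 CPM and N-cadherin (Cdh2), the adherens junction protein of the lining, at 131 and 151 CPM. All 14 junction, channel and transporter genes measured in the unmixed barcodes had intervals that held 1. Ezr, which builds the apical surface, was at 446 and 427 CPM, the gap junction gene Gja1 at 264 and 258 CPM, the glutamate transporter gene Slc1a3 at 172 and 161 CPM, and the potassium channel gene Kcnj10 at 157 and 112 CPM. The water channel gene Aqp4 was at 114 and 80.3 CPM, an unmixed ratio of 1.20 (0.858 to 1.72). Slc2a1, the glucose transporter of the blood-brain barrier, was at 253 and 491 CPM in all barcodes and at 276 and 311 CPM unmixed.

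Transcripts of the enzyme that the treatment is labelled for did not differ beyond counting error. Hdac3 was at 40.3 and 39.4 CPM, a ratio of 1.02 (0.624 to 1.72). A label of an inhibitor is not checked by this mRNA. Hdac1, a class I enzyme of the NuRD and Sin3 complexes, was at 69.0 and 39.4 CPM, a ratio of 1.75, and 1.62 (1.001 to 2.73) unmixed, on 79 and 22 UMIs. It was the 1 of 6 measured genes of its list past 1.5-fold in all barcodes, beside 8.04% of all genes. In the unmixed barcodes it was the 1 of 5, beside 3.72% of all genes. Hdac2, its close relative, was at 48.0 and 67.7 CPM, with an unmixed ratio of 0.703 (0.454 to 1.10), and the corepressor gene Ncor1 at 164 and 175 CPM.

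Genes of lipid handling held 3 of the genes past 1.5-fold in the unmixed barcodes, out of 11 measured on that list (beside 2.15% of all genes), and 4 of 13 in all barcodes (beside 4.53%). The 3 were the cholesterol synthesis genes Hmgcs1, at 97.0 and 59.1 CPM with a ratio of 1.64 (1.09 to 2.55), and Sqle, at 93.4 and 57.1 CPM with a ratio of 1.64 (1.08 to 2.56), and the fatty acid binding protein gene Fabp5, at 71.2 and 41.4 CPM with a ratio of 1.72 (1.05 to 2.93). Fabp5 was at 489.8 and 37.8 CPM in all barcodes and 3416 and 2268 CPM in the other kept ones. Each rested on few Vehicle UMIs, 30, 29 and 21. The desaturase gene Scd2 was at 469.8 and 441 CPM, a ratio of 1.06 (0.909 to 1.25), and Apoe, a lipid carrier of glia and macrophages, at 2117 and 1767 CPM, against 28618 and 29492 CPM in the other barcodes. Idi1 of the same pathway was below the level at which a gene counts as measured.

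Nuclear energy genes were close to equal, while most genes of the mitochondrial genome stood somewhat lower in the HDAC3i library. None of the 28 nuclear oxidative phosphorylation genes measured in the unmixed barcodes was past 1.5-fold, with a median log2 ratio of 0.06. All 13 genes of the mitochondrial genome were measured, and 11 had an unmixed ratio under 1 (beside 46.2% of all genes), with a median log2 of -0.12. Of the 13 unmixed intervals 5 held 1. The complex I gene mt-Nd3 was the one past 1.5-fold, at 1009.8 and 1579.7 CPM, a ratio of 0.639 (0.583 to 0.701). In the other kept barcodes mt-Nd3 was at 578 and 851 CPM, so the same direction was present there. mt-Atp6 and mt-Co3 were at 20858 and 22059 CPM and at 16384 and 19197 CPM, with ratios of 0.946 (0.924 to 0.967) and 0.853 (0.833 to 0.875). The neutrophil genes S100a8 and S100a9 were lower in the HDAC3i ependymal barcodes, with unmixed ratios of 0.393 (0.260 to 0.592) and 0.465 (0.328 to 0.661), and the 6 neutrophil markers summed to 10776 and 22913 CPM in the other barcodes. What part free RNA in the droplets had in these values was not tested.

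The genes at the ends of the range were then named by rule, 12 on each side. In all barcodes most of these were genes of oligodendrocytes and of endothelium. Oligodendrocyte genes such as Mag (240 and 1 UMIs) and Cldn11 (342 and 2 UMIs) were on the high side with Mog, Ptgds, Il33, Ppp1r14a, Car2, Aplp1, Stmn4, Hist1h2ap and Ccl2. Endothelial genes such as Flt1 (15 and 177 UMIs), Ptprb (6 and 113 UMIs) and Ly6a (15 and 165 UMIs) were on the low side with Vcam1, Icam1, Pglyrp1, Tmem252, Itm2a, Ctla2a, Slco1a4, Ramp2 and Car4. Of the UMIs of these 23 genes in the library where each was higher, 84.9% (Hist1h2ap) to all of them lay in the 15 mixed barcodes.

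In the unmixed barcodes the highest ratio belonged to Dbp, an output gene of the circadian clock, at 141 and 63.0 CPM (158 and 32 UMIs), a ratio of 2.23 (1.52 to 3.37). No single barcode set it, since the highest held 7 and 3 UMIs. Its ratio was in the same direction in astrocyte barcodes, 2.82 (1.44 to 5.94) on 37 and 12 UMIs, and was 1.15, 0.783 and 1.07 in endothelial, C1q-rich and oligodendrocyte ones. The gene lies on mm10 at chr7:45705088-45710203, plus strand. Calb1, which codes for the calcium buffer calbindin, was at 151 and 78.8 CPM (170 and 40 UMIs), a ratio of 1.92 (1.35 to 2.78), and at 0.189 and 0.0351 CPM in the other kept barcodes. Fam227a and Pipox, a peroxisomal oxidase, were at 78.3 and 41.4 CPM and at 78.3 and 45.3 CPM in the unmixed ependymal barcodes and at 0.947 and 0.982 CPM and 1.16 and 1.09 CPM in the other kept ones, with ratios of 1.89 (1.17 to 3.21) and 1.73 (1.08 to 2.87). In astrocyte barcodes Pipox was at 38.0 and 17.3 CPM. Lmna, the A-type lamin of the nuclear envelope, was at 89.0 and 51.2 CPM, a ratio of 1.74 (1.12 to 2.79), and Prkacb, a catalytic subunit of protein kinase A, at 82.7 and 47.3 CPM, a ratio of 1.75 (1.11 to 2.87). The rest of the 12 were Ccdc124 (1.97), Reep3 (1.94), Smim10l1 (1.94), Cdc37l1 (1.85), Nipal3 (1.79) and Kbtbd11 (1.74). In all barcodes Reep3 and Kbtbd11 were at ratios of 1.33 (0.964 to 1.87) and 1.24 (0.861 to 1.82), under 1.5-fold and with intervals that held 1. Their ratios in astrocyte, endothelial, C1q-rich and oligodendrocyte barcodes were 0.875, 0.988, 1.13 and 1.03 for Ccdc124, 1.02, 1.16, 1.08 and 1.08 for Smim10l1 and 0.915, 1.08, 0.966 and 1.13 for Nipal3.

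On the low side Hes1 came first, followed by Actn1, an actin crosslinker, at 66.7 and 134 CPM with a ratio of 0.498 (0.354 to 0.702). Acbd5, a tether of peroxisomes to the endoplasmic reticulum, was at 50.7 and 96.5 CPM, a ratio of 0.525 (0.352 to 0.786). Tmem255a, a membrane protein, was at 89.0 and 165 CPM against 0.731 and 1.02 CPM in the other kept barcodes, a ratio of 0.538 (0.398 to 0.728). The glutathione transferase gene Gstp1 was at 79.2 and 138 CPM, a ratio of 0.574 (0.415 to 0.797). In all barcodes the ratio of Gstp1 was 1.48, in the other direction. Also on this side were Ddx41 (0.560), Slc35a2 (0.573), Psmd2 (0.574), Eif3e (0.578), Nsmce3 (0.578) and Klf2 (0.588). In astrocyte, endothelial, C1q-rich and oligodendrocyte barcodes the ratio was 9.15, 0.990, 1.06 and 1.43 for Actn1 and 1.68, 1.12, 1.06 and 0.989 for Acbd5. In astrocyte barcodes Actn1 was at 127 and 13.8 CPM. Tmem255a was at 19.0 and 51.9 CPM there and Gstp1 at 63.3 and 173 CPM, also lower in the HDAC3i library. The astrocyte barcodes summed to 315912 and 288934 UMIs, so these astrocyte values rest on few UMIs. Both sets of 12 are the ends of 2796 genes, and their intervals are not widened for that choice. Apart from Hes1 with 126, they rested on 21 to 84 unmixed Vehicle UMIs. Of the 23 given here, 22 were past 1.5-fold also without the HDAC3i or the Vehicle barcode that held the most UMIs of the gene, and Klf2 was not. Among the 60 genes named in the text with an unmixed interval off 1, 50 kept it off 1 without either barcode. The others were Vim, Hspb1, Socs3, Sox4 and Klf2 for the Vehicle barcode and Egr1, Spp1, Dydc2, Hdac1 and Fabp5 for the HDAC3i one.

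**Figure D5:**
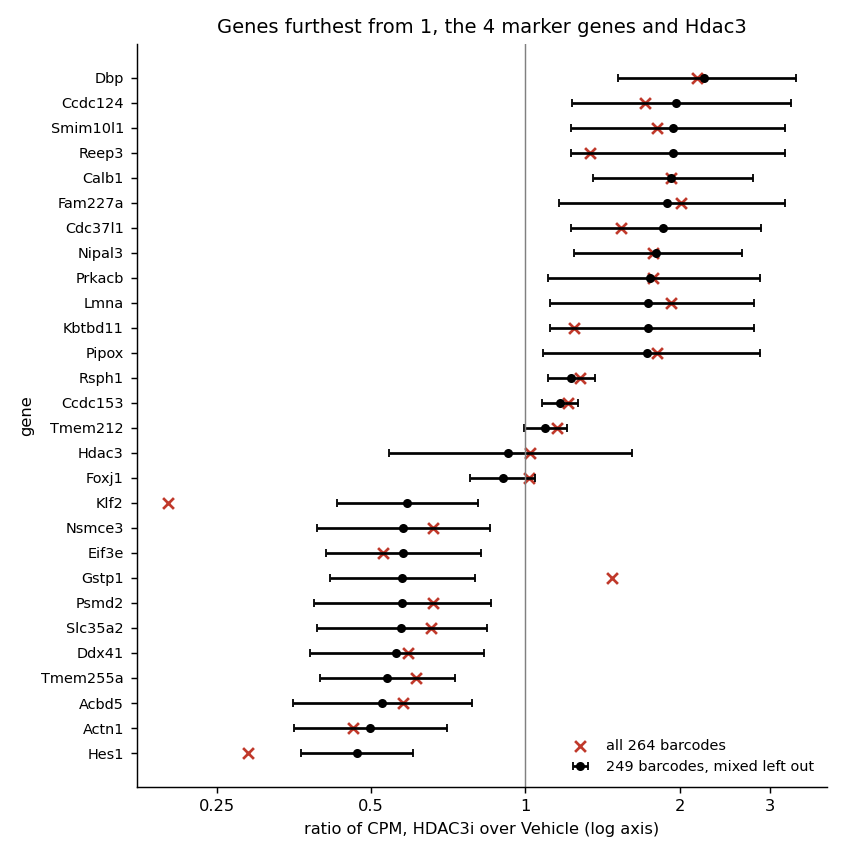
Points give the ratio HDAC3i over Vehicle on a log axis for the 12 highest and 11 of the 12 lowest genes of the unmixed barcodes, the 4 marker genes and Hdac3, with exact 95% intervals. Red crosses give the ratio in all 264 barcodes. The marker genes and Hdac3 lie near 1 and the outer genes reach 2.23 (Dbp) and 0.470 (Hes1), while the cross of Gstp1 lies on the other side of 1 from its point.

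Single barcodes varied more than the library sums did. After thinning, the lowest, median and highest share of motile cilia transcripts in an unmixed barcode was 1.67%, 3.10% and 4.93% in the HDAC3i library and 1.60%, 2.90% and 4.23% in the Vehicle library. The stem-like share was 0.200%, 0.633% and 2.07%, and 0.267%, 0.700% and 2.27%. The reactive glia share was 0.467%, 1.27% and 3.47%, and 0.633%, 1.23% and 2.60%. The immediate-early share had the widest range of these 4, with 0%, 0.267% and 6.10%, and 0.0333%, 0.333% and 3.03%. Across unmixed barcodes, Spearman's rho between the cilia and the stem-like share was -0.40 (172 barcodes) in the HDAC3i library and -0.0013 (69 barcodes) in the Vehicle library. Between the cilia and the mitochondrial share it was -0.21 and -0.47. Barcodes of a library share their preparation, and shares of 1 total depend on each other, so these values describe the 2 sets of barcodes and no more.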

How the data were processed

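Single cells of injured mouse spinal cord were measured in 1 HDAC3i and 1 Vehicle library, grouped by their labels. The deposited matrices hold UMI counts per barcode and gene, made by the authors. Per the file headers, the software was Cell Ranger, version 3.0.2, and the submitters' processing notes list Cell Ranger, Seurat and the build mm10. The counting of reads that match several genes was not given in the sources used here, which leaves levels of near-identical genes uncertain, and free RNA was not removed.

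Counts of the ependymal barcodes were summed per library and divided by their total to give CPM. A gene was measured at 100 UMIs or more over both libraries and 50 CPM or more in the higher one, and called at 1.5-fold. Shares have exact Clopper-Pearson intervals and ratios of CPM exact conditional binomial ones, at 95%. With 1 library a group no test was run. The summed depth was 1290359 and 634840 UMIs, which sets the width of the intervals. The code was tested on simulated counts.

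Named genes were the 4 markers and Hdac3, the 20 genes most enriched in ependymal barcodes, up to 6 of the most abundant genes of each list with its members past 1.5-fold, markers of other cell types, and the 12 highest and 12 lowest ratios. From the last, mitochondrial, ribosomal, haemoglobin, Gm and Rik genes and genes at over 5 times the CPM in the other barcodes, possible free RNA, were left out. A few genes that these rules name are not reported here. Members and lists were chosen with earlier results of these data known. Barcodes of other kinds were taken by marker UMIs: at least 5 of Slc7a10, Aldh1l1, Gjb6 and Slc1a2 (astrocyte), 10 of Cldn5 and Flt1 (endothelial), 50 of C1qa and C1qb (C1q-rich) or 20 of Mog, Mag, Cldn11 and Mobp (oligodendrocyte), each with under 5 ependymal marker UMIs. Doublets were kept. Leaving out mixed barcodes, or these and a single barcode, was an alternative added after seeing the data, as were the 12 highest and lowest ratios of the unmixed barcodes. The other alternatives are listed with their effect in the closing section. Python 3.11.15, numpy 2.4.6, pandas 2.3.3, scipy 1.17.1, scanpy 1.11.5 and matplotlib 3.10.9 were used.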

Additional observations from a re-analysis of the deposited data

How the results depend on the processing

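No paired analysis was possible because each group has 1 library, and for the same reason no replicate could be left out. The alternatives were a rule of at least 3 or at least 10 marker UMIs, at most 2 C1q UMIs, a stricter barcode filter (1000 genes, 2000 UMIs, 10% mitochondrial UMIs), Scrublet calls left out, each barcode weighted alike, thinning to 3000 UMIs, scaling by the median ratio, totals without mitochondrial genes, a low filter of 20 UMIs with no CPM floor and, added after seeing the data, no mixed barcodes, alone or together with leaving out the barcode of 1 library that held the most UMIs of a named gene. The share ratio of 1.80 ran from 1.77 to 2.28 and the cilia median from 0.04 to 0.23. The 150 higher genes became 43 after thinning, 1065 with the low filter and 60 without mixed barcodes. The 116 lower genes became 23, 985 and 44 under those settings and 178 at 3 marker UMIs. The stem-like median of 0.04 (log2) became 0.14 with the stricter filter, -0.11 with barcodes alike, -0.18 after thinning and -0.13 without mixed barcodes. The reactive glia median of 0.13 became 0.25 at 3 marker UMIs, -0.11 at 2 C1q UMIs, -0.16 with barcodes alike, -0.19 after thinning and -0.12 without mixed barcodes. Thinning, a smaller set of barcodes and the low filter also change how many genes are measured.

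Of 34 other list medians, 240 of 364 values under the alternatives moved by less than 0.1 (log2), 121 moved and 3 reversed: Notch to 0.038 with the low filter, immediate-early to 0.042 without mixed barcodes and oligodendrocyte markers to -0.847 at 3 marker UMIs. Of 2293 values for 183 named genes, 1968 stayed within their interval, 298 moved and 27 reversed. At 3 marker UMIs the reversed ratios were Mag 0.603, Cldn11 0.641, Ptgds 0.522, Il33 0.735, Mog 0.447, Car2 0.940, Aplp1 0.803 and Cryab 0.725. Without mixed barcodes they were Ptgds 0.903, Mog 0.113, Car2 0.903, Stmn4 0.271, Icam1 1.13, Tmem252 2.26 (0.253 to 107), Itm2a 1.07, Slco1a4 1.81 (0.179 to 89.0), Junb 1.18, Cryab 0.774, Id3 5.42, Nfkbia 1.03 and Ifitm2 2.17. After thinning Id3 was 1.31 and Ifitm2 1.20, and with barcodes alike Ifitm2 was 1.57. Without mixed barcodes and the HDAC3i barcode with the most UMIs of the gene, Junb was 1.04, and without the Vehicle one Junb was 1.35 and Nfkbia 1.17. The cause of the reversals at 3 marker UMIs was not tested. For 12 combinations of a named gene and a setting no ratio could be given. The Vehicle library had fewer ependymal UMIs, which limits genes under about 100 UMIs most.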

Other observations

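The gene at the upper end of the unmixed barcodes, Dbp, led to a look at other genes of the circadian clock, a list chosen after its value was seen. The clock is a loop in which Clock and Arntl (BMAL1) switch on the Per, Cry and Nr1d genes and output genes such as Dbp and Tef, and both titles carry the same date but no hour. In the unmixed barcodes the output factor gene Tef was at 37.4 and 33.5 CPM, a ratio of 1.12 (0.622 to 2.09). The repressor genes Per1, Per3 and Nr1d1 had ratios of 0.920 (0.575 to 1.502), 1.06 (0.690 to 1.68) and 1.30 (0.751 to 2.37). Cry2 and Bhlhe41, also repressors of the loop, had ratios of 1.498 (0.885 to 2.65) and 1.68 (0.987 to 3.01). Clock was at 66.7 and 63.0 CPM, a ratio of 1.06 (0.691 to 1.66), and Arntl at 17.8 and 25.6 CPM, a ratio of 0.695 (0.329 to 1.52). Each of these 8 intervals held 1, and the genes rested on 13 (Arntl) to 32 (Clock) Vehicle UMIs. Others of the list also had intervals that held 1, with ratios of 1.36 for Per2, 1.63 for Nr1d2 and 1.01 for Rora. Under 1 were Cry1 (0.780), Hlf (0.803), Nfil3 (0.973) and Bhlhe40 (0.703). Ciart and Npas2 had too few UMIs for a ratio. Besides Dbp, only Per3 and Clock reached the limits for a measured gene in the unmixed barcodes. The hour of sampling was not analysed here, and its part in the ratio of Dbp was not tested.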
